A study of Homo sapiens with 18 samples.

Results

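The transcripts examined here are 8 ligands, antagonists and receptors of the interleukin-1 (IL-1) family: IL1A, IL1B, IL1RN, IL18, IL18BP, IL1RAP, IL1R1 and IL1R2. They were chosen by name, as the rows of the count table whose Ensembl identifiers map to these symbols, and all 8 of the 8 were among the 63677 genes of the table and had counts. All 8 also passed the filter on low counts that left 16678 genes for testing, although IL1A passed only through the stimulated libraries, which held all but 2 of its counts. The libraries came from THP-1, a human acute monocytic leukemia cell line, and fall into 6 groups of 3 by transfection (WT, SCR or KD) and by stimulation with lipopolysaccharide (LPS), a cell wall component of Gram-negative bacteria, or none. KD cells received 25 nM of an siRNA that targets TRAFD1 and SCR cells 25 nM of a non-targeting siRNA, both with Lipofectamine RNAiMAX. The labels of WT differ, since the sample labels say transfection mix without siRNA and the series description says untreated cells. LPS at 10 ng/ml, or medium alone, was given for 4 h starting 72 h after transfection, by the labels and the methods, although another description of the same experiment names a shorter time. Numbers 1 to 3 denote unstimulated libraries and 4 to 6 stimulated ones. Treatments were done in triplicate in a single cell line, and nothing in the labels says that replicates were cultured apart, so p-values measure the spread between these libraries only.

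IL-1α (IL1A) and IL-1β (IL1B) are inflammatory cytokines that bind the receptor IL1R1, which signals together with its co-receptor IL1RAP through the adaptor MYD88. The receptor antagonist (IL1RN) occupies IL1R1 without signaling, and IL1R2 is a decoy receptor that binds the ligands but lacks a signaling domain. IL-18 (IL18) is a related cytokine, held back by the soluble IL-18 binding protein (IL18BP). IL-1β and IL-18 are made as inactive precursors that caspase-1 cuts inside inflammasomes, and monocytes are a classical source of IL-1β after contact with LPS.

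On GRCh37, 5 of the 8 genes lie on chromosome 2. The ligand genes IL1A (chr2:113531502-113542070) and IL1B (chr2:113587328-113594393) are on the minus strand and IL1RN (chr2:113856892-113891593) is on the plus strand, whereas the receptor genes IL1R2 (chr2:102608422-102645006) and IL1R1 (chr2:102681004-102796334) lie next to each other on the plus strand. IL1RAP is at chr3:190231840-190377539 on the plus strand, IL18BP at chr11:71709659-71718361 on the plus strand and IL18 at chr11:112013976-112034819 on the minus strand. Reads were counted over 500 bases at one end of each gene, and levels therefore do not scale with gene length. The wording of the methods is ambiguous on which end was kept, and the 3′ end was taken here because the libraries are 3′ libraries. In that window an opposite-strand gene overlaps IL18 (ENSG00000255292), IL18BP (NUMA1) and IL1R1 (IL1R1-AS1). The strand setting of the counting is not given in the sources used here, so for these 3 members reads of the partner gene cannot be told apart from their own.

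The 250 bases before a transcription start of IL1A, IL1B and IL1RN are shown because IL1B and IL1RN rose with LPS and IL1A was detected mainly with LPS, as described below. The sequences are from RefSeq on GRCh38.p14, 5′ to 3′ on the gene's strand, and RefSeq entries were found for 7 of the 8 members with 17 start sites in all. Capitals mark matches to TGANTCA (AP-1-like) or to GGG, any 3 bases and TTCC (kB-like), searched on both strands. IL1A is read from chr2:112784494-112784743 (minus), IL1B from chr2:112836780-112837029 (minus) and IL1RN from chr2:113127348-113127597 (plus).
IL1A: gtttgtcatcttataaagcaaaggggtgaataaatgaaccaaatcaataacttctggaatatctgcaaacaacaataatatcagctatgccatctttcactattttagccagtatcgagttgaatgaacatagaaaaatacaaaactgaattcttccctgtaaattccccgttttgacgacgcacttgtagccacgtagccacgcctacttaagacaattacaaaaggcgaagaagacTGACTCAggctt
IL1B: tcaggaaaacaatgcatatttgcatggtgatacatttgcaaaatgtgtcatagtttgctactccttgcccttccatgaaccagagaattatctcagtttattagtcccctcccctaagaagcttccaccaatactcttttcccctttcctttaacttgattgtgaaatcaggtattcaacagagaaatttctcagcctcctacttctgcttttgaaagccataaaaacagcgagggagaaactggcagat
IL1RN: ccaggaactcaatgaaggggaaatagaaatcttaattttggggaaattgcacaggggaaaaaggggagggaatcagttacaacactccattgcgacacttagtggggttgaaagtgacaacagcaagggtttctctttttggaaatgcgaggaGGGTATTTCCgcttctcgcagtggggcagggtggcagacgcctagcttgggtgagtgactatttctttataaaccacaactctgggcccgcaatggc
The IL1A stretch holds an AP-1-like match, TGACTCA, from base -12 to base -6, counted back from the start, and another one, TGAGTCA, lies after the start. Of the 2 IL1A start sites, the one not printed has both matches before the start, from base -105 to base -99 and from base -55 to base -49. The IL1RN stretch holds a kB-like match, GGGTATTTCC, from base -97 to base -88. Of the 3 IL1RN start sites, this one was printed because it has a kB-like match before the start. Another IL1RN start site has no kB-like match but an AP-1-like one, from base -223 to base -217. In the remaining one the same kB-like letters lie after the start, from base 12 to base 21. The IL1B stretch holds neither motif but has 3 matches to TTNNGNAA (C/EBP-like), a motif present in 36.8% of all 35116 promoter windows of 300 bases. The IL1A stretch has 2 such matches and the IL1RN stretch 3. Counted by window, 10 of the 17 start sites of the members have at least 1. Counted by gene, 6 of the 7 members with an entry do, but a gene can have several windows, so this is not comparable with the 36.8%. Windows with the AP-1-like motif make up 7.71% and those with the kB-like motif 6.52% of the same 35116. C/EBP-like matches were not capitalized, and none of them overlaps a capitalized match. A match is only a description of the letters in the window.

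Total counts ran from 8206023 to 22344279 per library, so that 1 count corresponds to 0.0444 to 0.126 CPM (counts per 1000000 of the TMM-scaled library total). TRAFD1, the target of the siRNA, was at 5.36 to 11.6 CPM in KD without LPS and at 20.1 to 26.8 CPM in SCR without LPS (log2 fold change -1.45, SE 0.23, edgeR adjusted p = 0.0277). With LPS the ranges were 13.8 to 15.8 in KD and 18.7 to 27.4 in SCR (log2 fold change -0.65, edgeR adjusted p = 0.262), so the knockdown label was separable by test without LPS only. Transcripts of TNF, CXCL8 and NFKBIA, all known to be induced by LPS, were higher with LPS in WT, SCR and KD (log2 fold changes 1.40 to 4.34, edgeR adjusted p at most 1.1e-05). The 8 monocytic markers were all detected and summed to 209 to 354 CPM per library. The 3 T cell markers summed to at most 0.142 CPM, the B cell, epithelial and fibroblast markers (3 each) to at most 4.28, 3.15 and 2.93 CPM, and none of these was at 0 in all 18 libraries. In bulk RNA, fewer cells of a type and less RNA per cell cannot be told apart.

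LPS raised the transcripts of the ligand IL1B and of the receptor antagonist IL1RN in WT, SCR and KD, and lowered the decoy receptor IL1R2 in SCR. IL1B rose the most among members with counts in every library, 16.2-fold in WT, 18.9-fold in SCR and 29.8-fold in KD. IL1RN rose 2.43-fold, 1.89-fold and 1.73-fold from a much higher base. IL18, IL18BP, IL1RAP and IL1R1 did not pass the test in any of the 3 conditions. By edgeR's quasi-likelihood test with Benjamini-Hochberg adjustment over 16678 genes, 2 of the 7 members other than IL1A passed in WT (both higher), 3 of 7 in SCR (2 higher, 1 lower) and 2 of 7 in KD (both higher). The fit also called IL1A higher in each condition, but the filter kept IL1A through stimulated libraries only, so that it had to differ and is left out of these counts. Of all genes tested, 14.3% passed in WT (7.01% rose and 7.26% fell), 17.2% in SCR (8.64% rose and 8.56% fell) and 11.5% in KD (6.41% rose and 5.05% fell). The median log2 fold change of the 7 was 0.21 in WT, 0.31 in SCR and 0.34 in KD, against -0.03, -0.03 and -0.003 over all genes tested. The libraries with and without LPS did not overlap for 3 of the 7 in WT, 4 of 7 in SCR and 3 of 7 in KD, where all genes gave 32.6%, 37.2% and 25.5%.

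**Figure D1:**
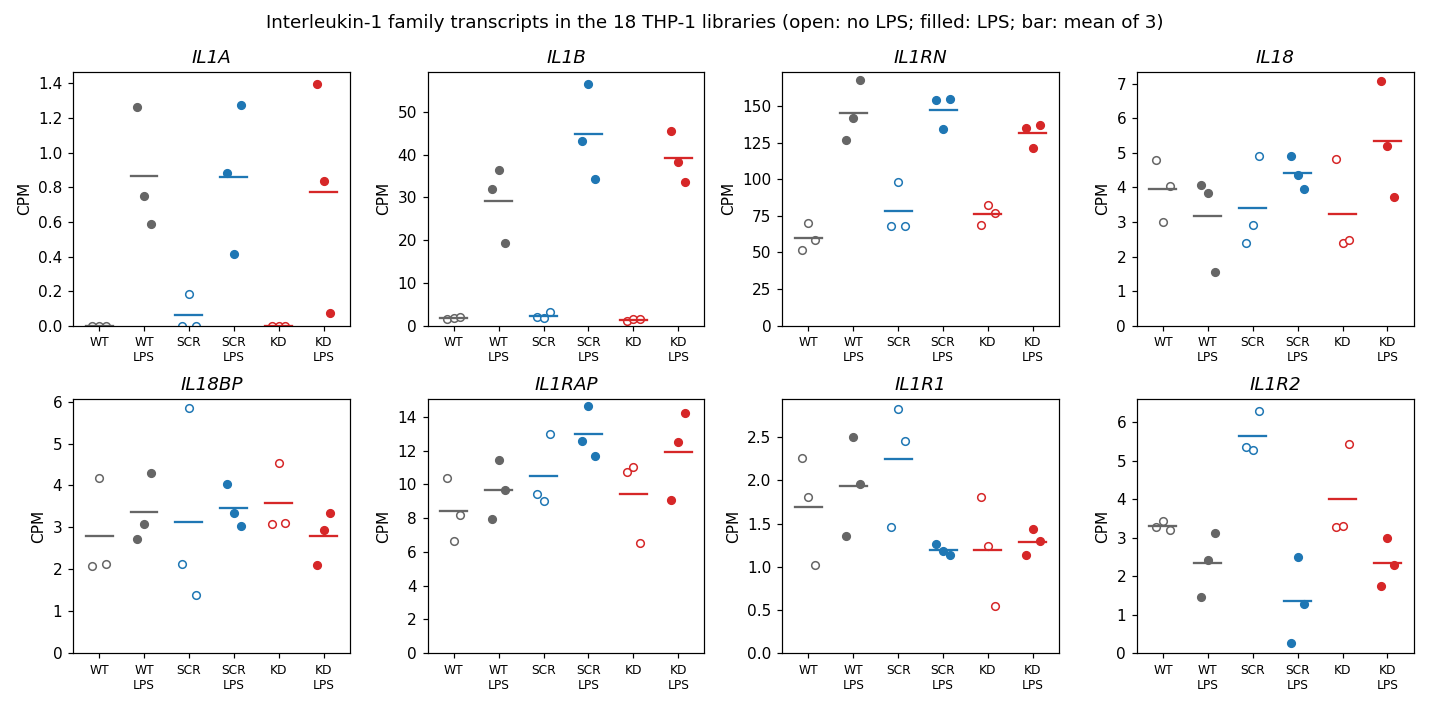
CPM (linear axes from 0) of the 8 transcripts in each of the 18 libraries, by group, with open points without LPS, filled points with LPS and a bar at the mean of 3. The LPS libraries of IL1B sit between 19.4 and 56.6 CPM, all above the 1.01 to 3.31 CPM of the libraries without LPS, whereas the points of IL18, IL18BP and IL1RAP overlap between the states.

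IL1B encodes IL-1β. Without LPS it measured 1.64, 1.72 and 2.00 CPM in WT, 1.95, 1.92 and 3.31 CPM in SCR and 1.01, 1.49 and 1.48 CPM in KD, and with LPS it measured 32.0, 36.3 and 19.4 CPM in WT, 43.2, 56.6 and 34.4 CPM in SCR and 45.6, 38.3 and 33.7 CPM in KD. Every library with LPS was above every library without it. The log2 fold change with LPS was 4.01 in WT (SE 0.27, edgeR adjusted p = 3.5e-10), 4.24 in SCR (SE 0.26, edgeR adjusted p = 2.7e-10) and 4.90 in KD (SE 0.29, edgeR adjusted p = 1.1e-10). Ranked by log2 fold change among 16678 genes, IL1B was number 36 from the top in WT, 22 in SCR and 18 in KD. In the order of group means, KD (1.32 ± 0.274 CPM, SD, n = 3), WT (1.79 ± 0.189) and SCR (2.39 ± 0.792) without LPS were followed by WT (29.2 ± 8.80), KD (39.2 ± 6.01) and SCR (44.7 ± 11.2) with LPS. Among neighbors in this order, KD and WT without LPS did not overlap, nor did SCR without LPS and WT with LPS, and the other neighbors overlapped.

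IL1RN, the receptor antagonist, was the most counted member, with 61.8% to 80.5% of the counts of the 8 members in every library. It measured 51.4, 70.3 and 58.4 CPM in WT, 68.4, 98.2 and 67.7 CPM in SCR and 68.6, 82.4 and 77 CPM in KD without LPS, and 127, 142 and 167 CPM, 154, 134 and 154 CPM, and 135, 122 and 137 CPM with LPS. The highest library without LPS, SCR 2, stayed below the lowest library with LPS, KD 5. The log2 fold change with LPS was 1.28 in WT (SE 0.14, edgeR adjusted p = 1.3e-06), 0.92 in SCR (SE 0.14, edgeR adjusted p = 1.2e-04) and 0.79 in KD (SE 0.14, edgeR adjusted p = 7.7e-04). Group means were 60.0 ± 9.56 CPM in WT, 76.0 ± 6.97 in KD and 78.1 ± 17.4 in SCR without LPS (SD, n = 3), and 131 ± 8.49 in KD, 145 ± 20.5 in WT and 147 ± 11.5 in SCR with LPS. Within each state neighbors in this order overlapped.

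IL1A, which encodes IL-1α, was close to the detection limit. Without LPS it had 0 counts in 8 of 9 libraries and 2 counts in SCR 2. With LPS it had 13, 9 and 6 counts in WT (1.26, 0.751 and 0.587 CPM), 7, 6 and 18 in SCR (0.882, 0.416 and 1.27 CPM) and 16, 14 and 1 in KD (1.40, 0.839 and 0.0761 CPM). All 9 libraries with LPS therefore had at least 1 count, and KD 6 was far below KD 4 and KD 5. Against a floor of 3 counts over the group without LPS, IL1A was at least 14.7-fold higher in WT and at least 9.99-fold higher in KD. In SCR the ratio of pooled CPM was 19.8 (95% exact interval 5.03 to 170). Floors and intervals of this kind cover counting error only, since the values count reads and not molecules. Of the libraries above the count cutoff of the filter, 5 were stimulated and 0 unstimulated, so these values are a description with no test. In fits to the libraries of one condition IL1A did not pass the filter and was not tested.

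**Figure D2:**
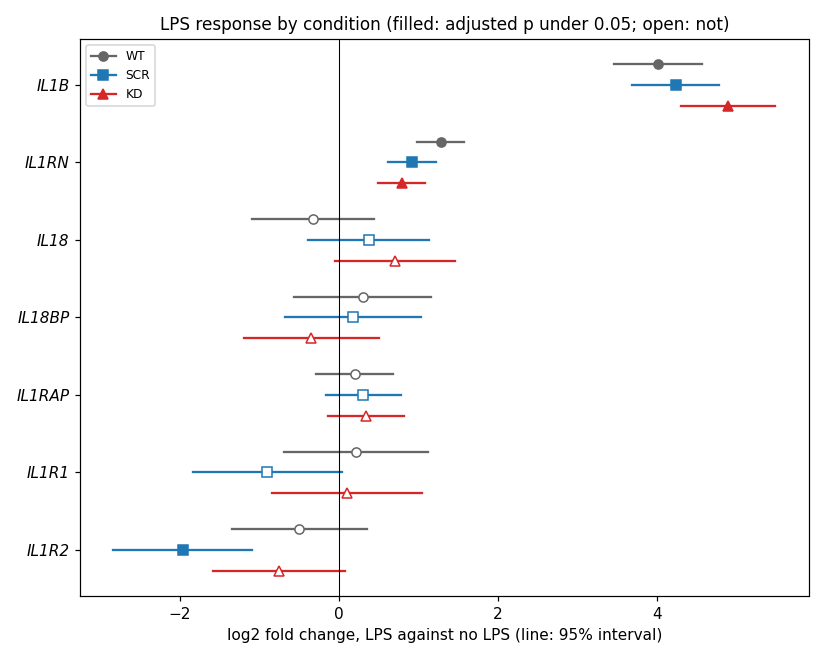
Log2 fold change of LPS against no LPS (x axis) for 7 members in WT (circles), SCR (squares) and KD (triangles), with 95% intervals and filled symbols for an edgeR adjusted p under 0.05. IL1A is not drawn because its fold rests on groups at 0. IL1B lies between 4.01 and 4.90 and IL1RN between 0.79 and 1.28, and IL1R2 is the member with a filled symbol below 0, in SCR.

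Among the receptors, the decoy IL1R2 moved down. Without LPS it measured 3.27, 3.45 and 3.20 CPM in WT, 5.37, 5.29 and 6.31 CPM in SCR and 3.29, 3.30 and 5.44 CPM in KD, and with LPS 1.46, 2.42 and 3.13 CPM, 0.252, 2.50 and 1.27 CPM, and 1.75, 3.0 and 2.28 CPM. Within each condition, the libraries with LPS were all below those without. The log2 fold change was -1.97 in SCR (SE 0.42, edgeR adjusted p = 0.00235). It was -0.50 in WT (95% interval -1.35 to 0.35, edgeR adjusted p = 0.485) and -0.76 in KD (95% interval -1.59 to 0.08, edgeR adjusted p = 0.235). The SCR value turned on few counts, 2 in SCR 4, 36 in SCR 5 and 18 in SCR 6. It passed the test with any 1 library left out, but the log2 fold change was -1.57 without SCR 4, the shallowest library with 8206023 counts, and -2.72 without SCR 5. In SCR the summed monocytic markers were also lower with LPS (217 to 231 CPM against 261 to 298). The median log2 fold change of these 8 markers with LPS was -0.35 in SCR, -0.34 in WT and -0.10 in KD. The summed 3 epithelial markers were lower in SCR as well (0.126 to 0.708 CPM against 0.799 to 3.15). Of these 3, KRT8 alone had more than 1 count in any SCR library. The part of either marker set in the IL1R2 result was not tested. In the order of group means, SCR (1.34 ± 1.12 CPM), WT (2.34 ± 0.839) and KD (2.34 ± 0.627) with LPS preceded WT (3.31 ± 0.127), KD (4.01 ± 1.24) and SCR (5.66 ± 0.564) without LPS (SD, n = 3), and KD with LPS and WT without LPS were the only neighbors without overlap.

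IL1R1, the signaling receptor, had the lowest mean of the 3 receptors in every group. It ranged from 1.02 to 2.26 CPM in WT, 1.46 to 2.83 CPM in SCR and 0.544 to 1.81 CPM in KD without LPS, and from 1.36 to 2.50 CPM, 1.13 to 1.26 CPM and 1.13 to 1.44 CPM with LPS. The SCR libraries with LPS lay below all 3 without (log2 fold change -0.90, SE 0.45, edgeR adjusted p = 0.185), and the WT and KD libraries overlapped between the states (0.21 and 0.10). The co-receptor IL1RAP was higher, at 6.52 to 13 CPM without and 7.97 to 14.6 CPM with LPS over the 18 libraries. Its log2 fold change with LPS was 0.20 in WT, 0.31 in SCR and 0.34 in KD, with 95% intervals that together ran from -0.28 to 0.82 and edgeR adjusted p of at least 0.362. An interval of this width does not show that IL1RAP stayed the same.

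IL18 and its binding protein were counted at similar levels. IL18 ranged from 2.39 to 4.92 CPM without LPS and from 1.56 to 7.07 CPM with LPS. Its log2 fold change was -0.33 in WT (95% interval -1.09 to 0.44), 0.38 in SCR (-0.38 to 1.14) and 0.70 in KD (-0.05 to 1.46), with edgeR adjusted p of 0.633, 0.536 and 0.220. Among the alternatives run, the KD value passed the test only when KD 1 was left out (1.12, edgeR adjusted p = 0.0487), since KD 1 had 4.83 CPM where KD 2 and KD 3 had 2.39 and 2.48. IL18BP ranged from 1.38 to 5.84 CPM without LPS, both ends in SCR, and from 2.09 to 4.30 CPM with LPS. Its log2 fold change was 0.30 in WT, 0.18 in SCR and -0.35 in KD, all with overlapping libraries and edgeR adjusted p of at least 0.639.

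Because each library carries its own depth, an antagonist, decoy or binding protein transcript can also be set against a partner transcript within a library, as a ratio of counts. Without LPS there were 29.2 to 40.8 IL1RN counts per IL1B count in WT, 20.5 to 51.3 in SCR and 52.2 to 68.2 in KD. With LPS the ratio was 3.91 to 8.65 in WT, 2.37 to 4.49 in SCR and 2.96 to 4.07 in KD. The ratio therefore fell in every condition with no overlap between the states, as follows from the unequal folds of its 2 genes, and IL1RN stayed the more counted of the pair in all 18 libraries. The ratio of the decoy IL1R2 to IL1R1 had medians of 1.90, 2.56 and 2.67 without LPS and 1.07, 1.13 and 1.76 with LPS in WT, SCR and KD, and its ranges overlapped between the states in each of them. The ratio of IL18BP to IL18 ran from 0.281 to 2.00 without LPS and from 0.296 to 2.75 with LPS, with no separation of groups. These ratios are descriptions with no test.

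**Figure D3:**
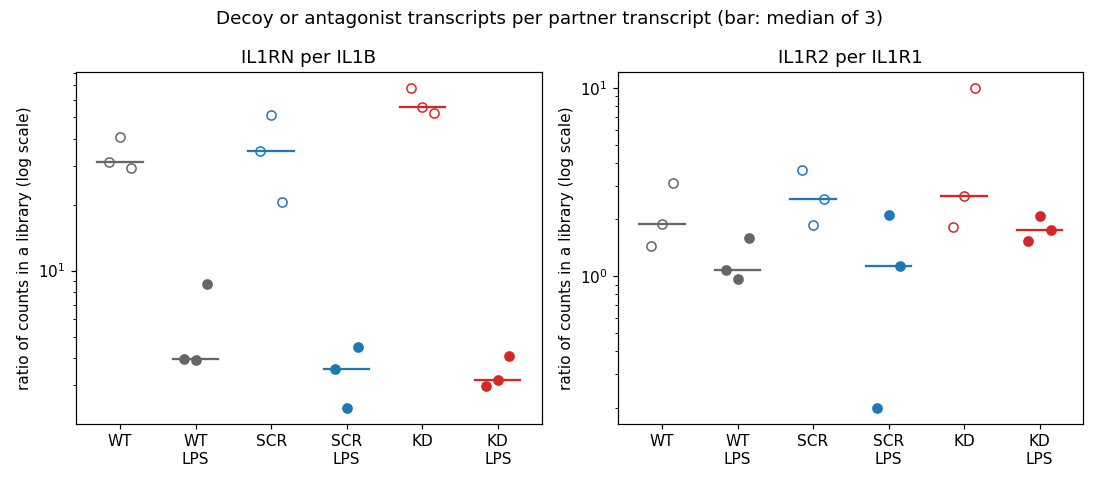
Ratio of counts in a library (log axes) for IL1RN per IL1B, left, and IL1R2 per IL1R1, right, in the 6 groups, with a bar at the median of 3. IL1RN per IL1B falls from medians of 31.4, 35.0 and 55.5 without LPS to 3.97, 3.56 and 3.17 with LPS in WT, SCR and KD, and the IL1R2 per IL1R1 points overlap.

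The question of the siRNA comparisons is whether lowering TRAFD1, described as a negative regulator of NF-kB signaling, alters these transcripts. None of the 8 members passed the edgeR test between KD and SCR in either state. The 8 include IL1A, here and in the comparisons of conditions that follow. Its counts without LPS were 0 in WT and KD and 2 in SCR, so that it could hardly pass there. Without LPS, 0.066% of all genes passed, and with LPS 0%, so that few or no genes of any kind were called. At an unadjusted p under 0.05, 1 of 8 members without LPS and 0 of 8 with LPS were past the threshold, and over all genes 2107 (12.6%) and 1963 (11.8%) were. DESeq2 called 0 members in both. The libraries did not overlap for 1 of 8 members without LPS (15.1% of all genes) and 0 of 8 with LPS (21.5%).

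The member past the unadjusted threshold was IL1B without LPS. Its 3 KD libraries (1.01, 1.49 and 1.48 CPM) lay below the 3 SCR libraries (1.95, 1.92 and 3.31 CPM), with a log2 fold change of -0.85 (SE 0.34, 95% interval -1.55 to -0.15, edgeR adjusted p = 0.292). These values rest on 52 counts in KD and 108 in SCR over 3 libraries each. With LPS the KD and SCR libraries of IL1B overlapped (log2 fold change -0.19, 95% interval -0.63 to 0.25). IL1RN differed little between KD and SCR, by -0.04 without LPS (95% interval -0.33 to 0.26) and -0.17 with LPS (-0.46 to 0.13) on the log2 scale, which is the narrowest interval among the members. For IL1R2 the log2 fold change was -0.50 without LPS and 0.71 with LPS, and for IL1R1 -0.87 and 0.13, with intervals spanning 0. IL18, IL18BP and IL1RAP lay between -0.29 and 0.28, with 95% intervals that together ran from -1.15 to 1.08. Intervals of this width do not show that these 3 stayed the same. IL1A had 0 counts in KD and 2 in SCR without LPS, too few for a fold, and 31 counts in each group with LPS.

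**Figure D4:**
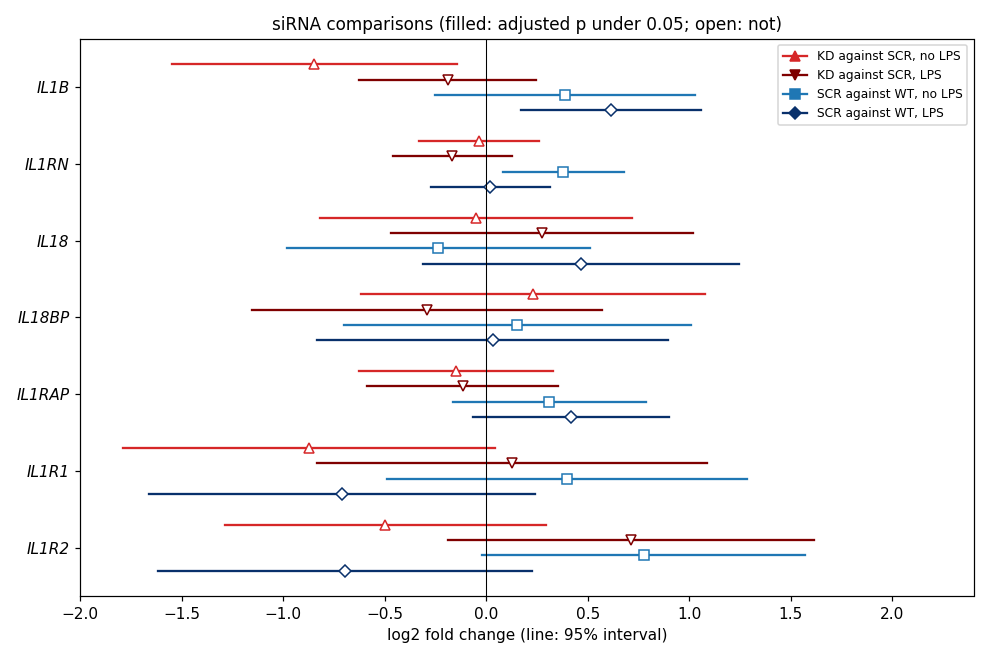
Log2 fold change (x axis) of 7 members for KD against SCR and for SCR against WT, in both stimulation states, with 95% intervals, where a filled symbol would mark an edgeR adjusted p under 0.05. All symbols are open, and the value for IL1B in KD against SCR without LPS is -0.85 with an interval from -1.55 to -0.15.

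SCR against WT compares a non-targeting siRNA with cells that had none, and since the labels of WT differ, siRNA and transfection reagent cannot be told apart in it. Again 0 of 8 members passed by the main edgeR fit or DESeq2 in either state. Over all genes 3.23% passed without LPS and 0.114% with LPS. In each state 1 of 8 members was past an unadjusted 0.05, where 17.2% and 13.7% of all genes were. Without LPS that member was IL1RN (log2 fold change 0.38, SE 0.14, edgeR adjusted p = 0.155), whose libraries overlapped. With a term for the replicate number in the fit (replicate block) it passed (0.37, edgeR adjusted p = 0.0356), although the numbers were not taken to pair these libraries. With LPS it was IL1B (log2 fold change 0.61, SE 0.21, edgeR adjusted p = 0.235), also with overlap. These values have no block, although the numbers were taken to pair the libraries with LPS, and with the block 0 members passed. Without the filter on low counts this IL1B difference passed (0.62, edgeR adjusted p = 0.0241). The libraries did not overlap for 1 of 8 members without LPS (22.6% of all genes), IL1R2, which was higher in SCR by 0.78 on the log2 scale (95% interval -0.02 to 1.57). With LPS they did not overlap for 2 of 8 (22.8% of all genes), IL1RAP, which was higher in SCR (log2 fold change 0.42, edgeR adjusted p = 0.431), and IL1R1, which was lower (-0.71, edgeR adjusted p = 0.500).

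KD against WT shares its KD libraries with the first comparison and its WT libraries with the second. Here 11.7% of all genes passed without LPS and 10.8% with LPS, but 0 of 8 members did in either state by the main edgeR fit or DESeq2. At an unadjusted 0.05, 1 and 0 members were past the threshold, where 25.8% and 26.5% of all genes were. That 1 was IL1RN without LPS (log2 fold change 0.34, SE 0.14, edgeR adjusted p = 0.132). The libraries did not overlap for 1 of 8 members without LPS (24.3% of all genes), IL1B, which was lower in KD (log2 fold change -0.46, 95% interval -1.18 to 0.26), and for 0 of 8 with LPS (35% of all genes). With LPS, IL1B was 0.42 higher in KD than in WT (95% interval -0.02 to 0.86). The edgeR fit with the replicate block called IL1RN without LPS (0.35, edgeR adjusted p = 0.0246) and IL1B with LPS (0.46, edgeR adjusted p = 0.0436). The numbers were not taken to pair the libraries of KD and WT.

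Whether the LPS response itself differed between conditions was tested with interaction terms, which share libraries with each other. Of the 8 members, IL1A had groups at 0 counts and could hardly pass. None of the 8 members passed for KD minus SCR, SCR minus WT or KD minus WT, against 0%, 0.234% and 0.36% of all genes by edgeR. DESeq2 called 0 members in each, and 1, 1 and 2 members were past an unadjusted 0.05, where 7.64%, 9.96% and 15.5% of all genes were. For IL1B the response was 0.66 larger on the log2 scale in KD than in SCR (95% interval -0.17 to 1.48, edgeR adjusted p = 0.710) and 0.88 larger in KD than in WT (0.04 to 1.72, edgeR adjusted p = 0.300). For IL1RN the response of KD differed from that of WT by -0.49 (-0.91 to -0.07, edgeR adjusted p = 0.263). The IL1R2 response of SCR differed from WT by -1.47 (-2.69 to -0.25, edgeR adjusted p = 0.445) and that of KD from SCR by 1.21 (0.01 to 2.41, edgeR adjusted p = 0.649). The decline of IL1R2 that passed in SCR was therefore not separable from the smaller declines in WT and KD.

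Of 14 further genes of the family, 8 had counts and 3 were tested: the IL-18 receptor chains IL18R1 and IL18RAP, and SIGIRR, an inhibitory receptor. Both IL-18 receptor chains were near 0 without LPS and detected with LPS. Like IL1A, they passed the filter through stimulated libraries only, so their values are given as a description with no test. IL18R1 had 1, 0 and 2 counts over the 3 libraries without LPS in WT, SCR and KD and 23, 31 and 61 with LPS. Its ratio of pooled CPM was 36.3 in WT (95% exact interval 5.89 to 1494), at least 13.2 in SCR and 29.5 in KD (7.82 to 249). The stimulated libraries of IL18RAP held 57, 33 and 29 counts in WT, SCR and KD and the unstimulated ones 3, 7 and 2, and its ratio was 29.97 in WT (interval 9.75 to 150), 6.01 in SCR (2.61 to 16.1) and 14.0 in KD (3.55 to 121). In SCR the libraries of IL18RAP overlapped between the states. All 7 counts without LPS came from 1 library (0.311 CPM), and the lowest library with LPS held 2 counts (0.252 CPM). As for IL1A, these intervals cover counting error only and not the spread between libraries. SIGIRR had log2 fold changes of -0.60, -0.14 and -0.35 in WT, SCR and KD, and edgeR adjusted p of at least 0.110.

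Of 18 genes for signaling below the IL-1 receptor, 17 were tested, IKBKG being at 0. In WT 3 rose and 3 fell with LPS, in SCR 3 rose and 4 fell, and in KD 6 rose and 2 fell, and the median log2 fold change of the list was -0.12, -0.03 and 0.16, against -0.03, -0.03 and -0.003 over all genes tested, of which 7.01%, 8.64% and 6.41% rose and 7.26%, 8.56% and 5.05% fell. The kinase IRAK2 rose by 1.71, 2.39 and 2.81 and the ubiquitin ligase PELI1 by 1.38, 1.07 and 1.48 on the log2 scale in WT, SCR and KD, and both passed in each (edgeR adjusted p at most 0.00382). IRAK3, an inhibitory member of the kinase family, rose in WT (0.46, edgeR adjusted p = 0.00662). MAP3K3 (-0.89, -0.51 and -0.50) and the IkB kinase subunit IKBKB (-0.40, -0.39 and -0.31) were lower in all 3 with edgeR adjusted p of at most 0.0432, and PELI2 was lower in WT (-1.11, edgeR adjusted p = 0.0107). By edgeR 0 of the 17 passed between KD and SCR, where 3 without LPS and 1 with LPS were past an unadjusted 0.05, and 0 passed in an interaction, where 2, 0 and 4 were past it for KD minus SCR, SCR minus WT and KD minus WT. The shares of all genes past the unadjusted threshold are those given with the members, 12.6% and 11.8% between KD and SCR and 7.64%, 9.96% and 15.5% in the interactions. In SCR against WT 0 passed in either state, where 1 and 4 were past the unadjusted threshold. In KD against WT 0 were higher and 3 lower without LPS, namely IRAK3 (log2 fold change -0.44), IKBKB (-0.36) and MAP3K3 (-0.50), and with LPS the IkB kinase subunit CHUK was higher (1.73) and the kinase IRAK1 lower (-0.38), against 11.7% and 10.8% of all genes called. CHUK and IRAK1 were named after their values were seen.

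Of 13 genes for processing and release, 12 were tested. In WT 1 rose and 2 fell, in SCR 1 rose and 3 fell, and in KD 0 rose and 1 fell, with list medians of -0.08, -0.07 and -0.08 on the log2 scale, against -0.03, -0.03 and -0.003 and 14.3%, 17.2% and 11.5% called over all genes tested. The inflammatory caspase CASP4 rose in WT (0.39, edgeR adjusted p = 0.0118). The inflammasome sensors NLRP3 (-0.85, edgeR adjusted p = 1.6e-04) and NLRC4 (-1.03, edgeR adjusted p = 0.00881) fell in WT, and NLRC4 also fell by 1.24 in SCR and by 1.78 in KD on the log2 scale. CASP1 did not pass with LPS in any condition. By edgeR 0 of the 12 passed between KD and SCR, where 4 without LPS and 5 with LPS were past an unadjusted 0.05, and 0 passed in an interaction, where 1, 1 and 3 were past it. Over all genes the shares past it were again 12.6% and 11.8%, and 7.64%, 9.96% and 15.5%. In SCR against WT 0 passed in either state, where 2 and 1 were past the unadjusted threshold. In KD against WT the proteases ELANE (log2 fold change 0.67), PRTN3 (1.06) and CAPN2 (0.28) were higher without LPS, and with LPS ELANE was higher (0.42) and the DNA sensor AIM2 lower (-1.09), against 11.7% and 10.8% of all genes called. These 4 genes were named after their values were seen. DESeq2 calls of these lists were not examined.

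**Figure D5:**
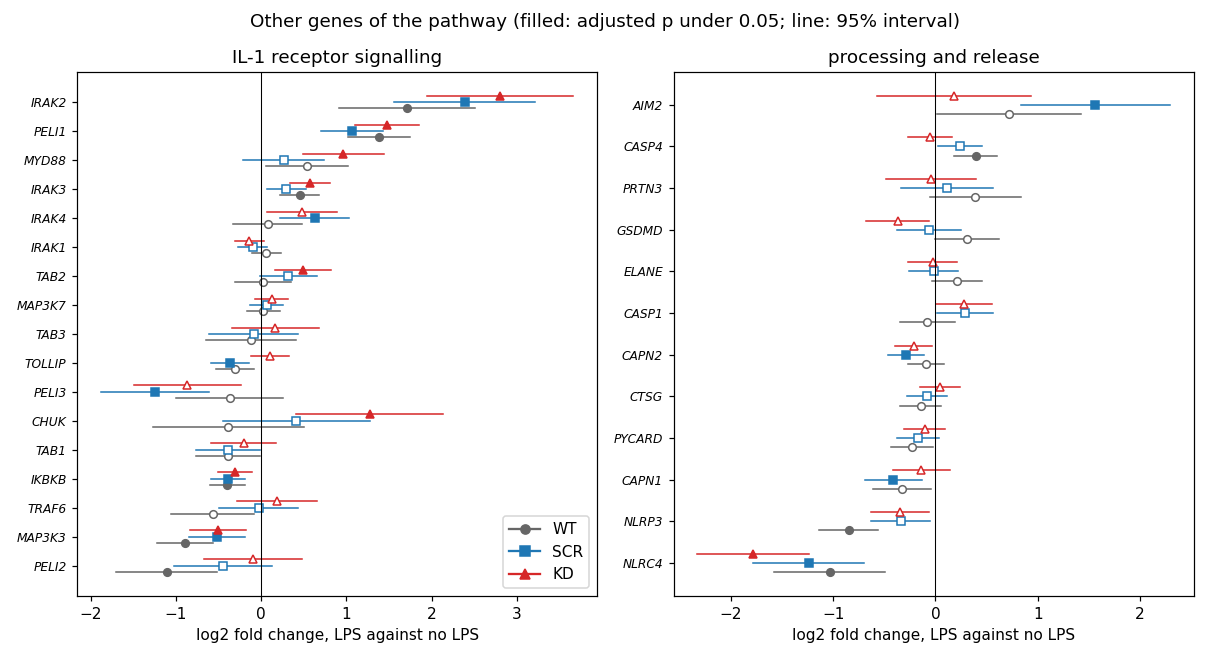
Log2 fold change of LPS against no LPS (x axes) for 17 signaling genes, left, and 12 genes for processing and release, right, in WT (circles), SCR (squares) and KD (triangles), with 95% intervals and filled symbols for an edgeR adjusted p under 0.05. IRAK2 and PELI1 are filled to the right of 0 in all 3 conditions and NLRC4 is filled to the left of 0 in all 3.

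Across the 18 libraries, which share the LPS contrast and one cell line, IL1B varied with IL1RN (Pearson r = 0.89 of log2 CPM) and with IL1A (0.88) and against IL1R2 (-0.65). IL18 and IL18BP varied in opposite directions (-0.50), and IL1R1 had no coefficient above 0.23 in size with another member. Among all genes tested, those most like IL1B were MTF1 (0.98), TRIP10 (0.98) and EIF5 (0.98), and those most like IL1RN were HMOX1 (0.97), BCL3 (0.97) and OSGIN1 (0.96). IL1R2 was most like PDLIM3 (0.96), RABGAP1L-IT1 (0.95) and EEF1DP7 (0.94), and IL1A most like METTL2B (0.92), LINC02605 (0.92) and EBI3 (0.92). The coefficients were lower for IL18 (CENPBD2P 0.88, NPIPA8 0.87, TCEAL3 0.86), IL1RAP (SNX16 0.85, SURF6 0.84, ZNF518A 0.82), IL1R1 (CEP126 0.76, PRTG 0.75, PMEPA1 0.71) and IL18BP (STAG3L5P-PVRIG2P-PILRB 0.74, ENSG00000261254 0.73, ZNF17 0.72). The coefficients describe these 18 libraries, which also share their depths and the split by LPS, and they carry no test.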

How the data were processed

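RNA was extracted from THP-1 cells and made into 3′ libraries with QuantSeq. The authors aligned the reads with HISAT to GRCh37 (human_g1k_v37) and counted them with featureCounts of Rsubread 1.6.2 on Ensembl 75 genes reduced to 500 bases at one end, taken here to be the 3′ end since the wording is ambiguous. The deposited table holds raw read counts, 1 column per library, for 18 libraries in 6 groups of 3, and 0 columns were left out. Counting from 3′ ends depends on the annotated gene end, so transcripts that end elsewhere may be missed. Symbols, positions and overlapping genes are from GENCODE v44lift37 and were matched by gene identifier.

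After filterByExpr had dropped genes of low count, the 18 libraries were analyzed together in edgeR 4.0.16 (R 4.3.3), with TMM scaling, 6 group means and the quasi-likelihood F test. For each of 12 contrasts, Benjamini-Hochberg adjustment ran over 16678 genes with a threshold of 0.05. The standard error (SE) equals the log2 fold change over the root of its F statistic, and 95% intervals use the t distribution with the degrees of freedom of the fit. The floor of a count of 0 is 3 counts over the group. Correlations used log2 CPM with a prior count of 2. With 3 libraries against 3 an exact permutation test of one comparison cannot go below 0.1. Alternatives were RLE size factors, DESeq2 1.42.0, no filter, a replicate block, a fit to the libraries of a contrast alone, and leaving out each library in turn. The procedure was tested on simulated data. No library pair of a group agreed within sampling noise. Deviations of same-numbered libraries correlated at over 0.1 in all 3 pairs for WT and SCR with LPS only (0.163 to 0.261), so the numbers, which the labels give with no shared batch, were taken to pair those libraries.

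Named genes are the 8 members, the tested genes of the rest of the family, up to 3 genes per direction of each pathway list with the smallest adjusted p in the LPS response of WT, the 3 genes most like each member, and TRAFD1, TNF, CXCL8 and NFKBIA as checks of the labels. CASP1, CHUK, IRAK1, ELANE, PRTN3, CAPN2 and AIM2 were named outside this rule, after their values were seen. The members and lists were chosen with earlier results of these data known.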

Additional observations from a re-analysis of the deposited data

How the results depend on the processing

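The members called with LPS numbered 2 to 3 in WT, 3 to 4 in SCR and 2 to 3 in KD with RLE size factors, DESeq2, no filter or a fit to the libraries of the contrast alone. Leaving out 1 library in turn gave 3 to 3 in WT, 3 to 4 in SCR and 2 to 4 in KD, and 0 to 0 in the other comparisons. IL1B and IL1RN passed with LPS in every condition under all of these. These counts include IL1A, which is left out of the main counts of the 7 members, so the ranges are not those of the main counts. IL1A was not tested in the fits to the libraries of the contrast alone and had no adjusted p from DESeq2 in WT. With 1 library left out, IL1A passed in 6 of 6 fits in WT, 2 of 6 in SCR and 4 of 6 in KD. The main fit kept IL1A through stimulated libraries only, so that it had to differ and its passes carry no weight as a test. IL18 passed in 1 of 6 in KD, and IL1R2 in 6 of 6 in SCR.

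The numbers were taken to pair the libraries of SCR and WT with LPS from their correlations alone, since the labels name no shared batch. There the replicate block called 0 members, as did the fit without it. The terms of the block were shared by KD libraries of the same number, which were not taken to be paired. In the other comparisons of conditions not all 3 pairs were above 0.1, and over all of them same-numbered libraries had correlations of -0.0875 to 0.304 in their deviations, 4 of 18 pairs were above 0.1, and in 18 of 36 comparisons a library correlated best with its own number. With the replicate block, 1 member was called in SCR against WT without LPS (IL1RN, 0.37, edgeR adjusted p = 0.0356), 1 in KD against WT without LPS (IL1RN, 0.35, edgeR adjusted p = 0.0246) and 1 in KD against WT with LPS (IL1B, 0.46, edgeR adjusted p = 0.0436). It does not apply to the LPS contrasts, whose groups share no number. Without the filter 1 member was called in SCR against WT with LPS (IL1B). The cause was not tested.

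Log2 fold changes near 0 changed sign. They were 0.0059 for IL1RN in KD against SCR without LPS and -0.0021 in SCR against WT with LPS in fits to the contrast's own libraries, -0.0078, -0.011 and -0.0078 for IL1R2 in KD against WT with LPS with RLE, DESeq2 and the own libraries, and 0.015 for IL18BP in the SCR minus WT response with the replicate block. Leaving out 1 library gave these ranges across 0. In KD against SCR without LPS: IL1RN -0.13 to 0.16, IL18 -0.47 to 0.31, IL18BP -0.11 to 0.99, IL1RAP -0.27 to 0.055. In KD against SCR with LPS: IL1B -0.35 to 0.020, IL1RAP -0.26 to 0.043. In SCR against WT: IL18BP -0.61 to 0.52 without and -0.10 to 0.24 with LPS, IL1RN -0.070 to 0.13 with LPS. In KD against WT: IL1R2 -0.0029 to 0.41 without and -0.23 to 0.27 with LPS. With LPS: IL1R1 -0.073 to 0.49 in WT and -0.24 to 0.54 in KD, IL18BP -0.17 to 0.94 in SCR. In the response of KD minus SCR: IL18 -0.030 to 0.74, IL1RAP -0.17 to 0.19. In SCR minus WT: IL18BP -0.49 to 0.64, IL1RAP -0.070 to 0.29. In KD minus WT: IL1RAP -0.062 to 0.30, IL1R1 -0.45 to 0.33, IL1R2 -0.51 to 0.022. None of these passed the test. Depth limits IL1A, IL1R1 and IL1R2, whose libraries held as few as 0, 7 and 2 counts.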
